A study of Drosophila melanogaster with 6 samples.

Results

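The epidermal growth factor (EGF) receptor module of the fly was followed through 10 genes chosen by name: the receptor *Egfr*, the ligands *spi*, *Krn*, *vn* and *grk*, the ligand-processing genes *rho*, *ru* and *S*, and the feedback inhibitors *aos* and *sty*. They are 10 of the 17714 genes listed in the deposited tables, and all 10 were among the 11568 genes tested. In the *Drosophila* embryo, membrane-bound ligand precursors are escorted out of the endoplasmic reticulum and cut by Rhomboid proteases, and the released ligand binds the receptor tyrosine kinase. The receptor then acts through Ras, Raf and the kinase ERK on transcription factors such as Pointed, and some of the genes switched on in this way encode inhibitors of the same pathway. The module is best known in the early embryo for patterning the ventral ectoderm and the midline.

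RNA was sequenced from whole embryos of 2 genotypes, with 3 biological replicates each, to ask how transcripts differ when Raf is lost, the kinase that acts between Ras and ERK. *Raf926* embryos, labelled as knockout and homozygous (-/-) in the records, came from a line carrying an X chromosome marked with *w* and bearing a short deletion that shifts the *Raf* reading frame. Such embryos are obtained from mothers with germline clones, made with FRT19A and the dominant female-sterile *ovoD2*, so that the egg receives no functional Raf, and the crosses listed use fathers whose own X can supply a zygotic copy to daughters. WT embryos were of the Oregon R strain, so that strain background and genotype cannot be told apart, and *Raf926* is a single allele. The labels describe eggs laid over 24 h at 25 °C and harvested as mixed stages, whereas the methods of the study describe a shorter and cooler collection. The age mix of each sample was not measured here.

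The libraries held 33275401 to 38120428 counts, and 3 counts, the limit that a count of 0 allows, corresponded to 0.0787 to 0.0902 CPM (counts scaled to library size; counting error only). *Raf*, the mutated gene, averaged 1388 ± 174 normalized counts in *Raf926* embryos and 2563 ± 377 in WT (SD, n = 3 each). The age and tissue markers differed between the genotypes. By the rule for calling given below, 26.9% of all genes tested were lower in *Raf926* and 22.7% higher. All 5 maternal germline transcripts examined were called higher in *Raf926* embryos, with a summed level of 137 to 189.6 TPM (a level corrected for transcript length and library size) in *Raf926* and 43.9 to 78.7 TPM in WT, while 10 eggshell genes of the adult ovary summed to at most 3.40 TPM in any library. Of the muscle and tendon genes, 5 of 6 were called lower in *Raf926*, summing to 39.2 to 253 TPM in *Raf926* and 1789 to 3493 TPM in WT. Within *Raf926*, replicate 2 stood apart for muscle, with 4159 normalized counts of the myosin gene *Mhc* against 265 and 58.1 in replicates 1 and 3. Within WT, replicate 3 was lowest for all 5 maternal germline transcripts. It had 221 normalized counts of *osk*, against 1221 and 1556 in WT replicates 1 and 2. In bulk RNA, fewer cells of a type and less RNA per cell cannot be told apart.

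Of the 10 genes, 5 were called downregulated in *Raf926* embryos (*sty*, *aos*, *rho*, *spi* and *Egfr*), none was called upregulated and 5 were not called. A gene was called where the quasi-likelihood test of edgeR gave a p under 0.1, after Benjamini-Hochberg adjustment over all genes, and the fold change exceeded 1.5. By this rule 26.9% of all genes tested were called lower and 22.7% higher. By the DESeq2 Wald test with the same thresholds 0 of the 10 were called higher too, against 2572 of all genes. At an unadjusted p under 0.05, with no fold threshold, 1 of the 10 was higher (*Krn*), as were 3595 of the 11568 genes tested. For 7 of the 10 genes the normalized counts of *Raf926* and WT samples did not overlap, 6 of them lower and 1 (*Krn*) higher in *Raf926*, where over all genes tested 68.5% did not overlap. The median log2 fold change was −0.65 over the 10 genes and −0.04 over all genes tested. With 3 against 3 samples, the exact permutation test cannot give a p below 0.1.

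**Figure D1:**
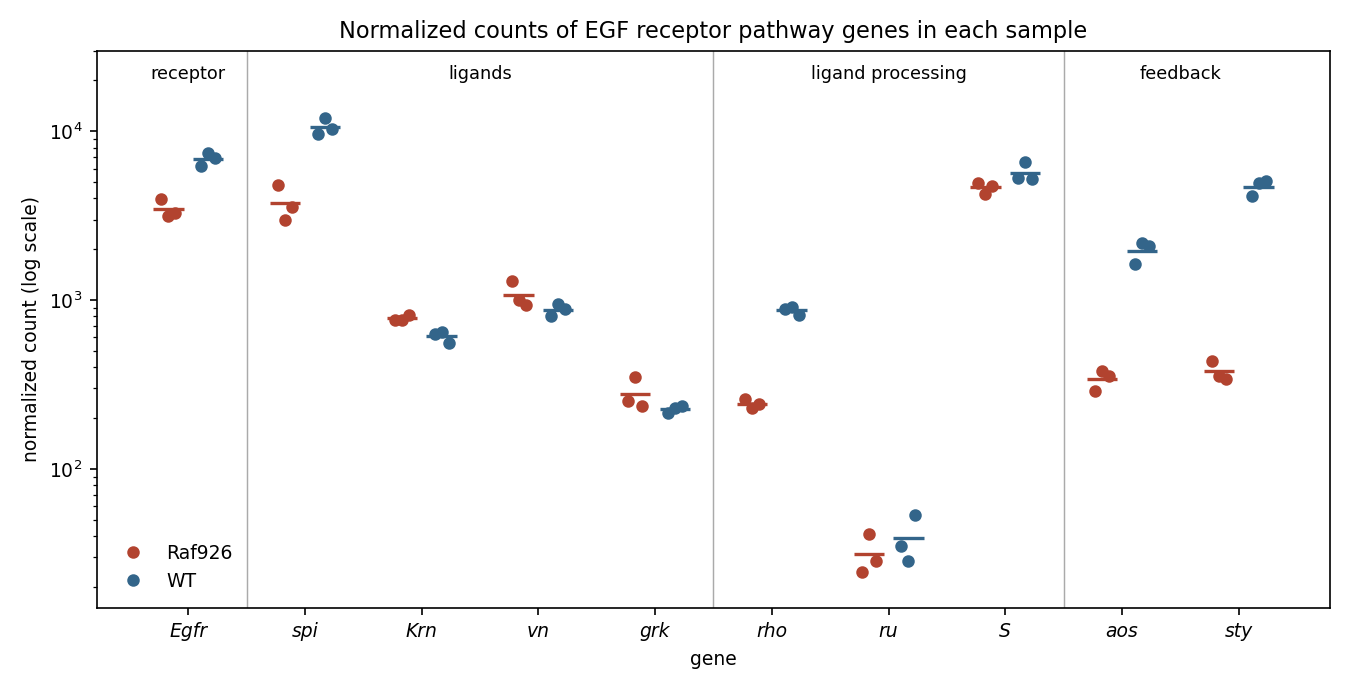
Normalized counts (log axis) of the 10 genes in each sample, by role in the pathway, with *Raf926* embryos in red on the left and WT in blue on the right of each gene. Points are samples and bars are means of 3. *sty*, *aos*, *rho*, *spi* and *Egfr* lie apart, with *Raf926* below WT, whereas *vn*, *grk* and *ru* overlap.

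*Egfr* (FBgn0003731, chromosome 2R, positions 21522420 to 21559977, plus strand; all positions in BDGP6.54) encodes the only EGF receptor of the fly. It had 3984, 3139.5 and 3260.3 normalized counts in *Raf926*, given in the order of the replicates here and throughout, and 6211, 7408 and 6918 in WT. The highest *Raf926* sample was replicate 1, and the lowest WT sample was still 1.56 times it. Means were 3461 ± 456 in *Raf926* and 6846 ± 602 in WT (SD, n = 3 each), which puts *Raf926* at 50.6% of WT. The log2 fold change was −0.98 (SE 0.12; edgeR quasi-likelihood test, adjusted p = 0.00047, 95% interval −1.27 to −0.70). With each sample left out in turn it lay between −1.09 and −0.88.

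Among the ligands, *spi* (spitz, FBgn0005672, chromosome 2L, 19567900 to 19577315, minus strand) encodes the transforming growth factor alpha-like precursor used most widely in the embryo. It had 4787, 2964 and 3545 normalized counts in *Raf926*, against 9606, 12009 and 10296 in WT. *Raf926* replicate 1 was again the highest of its genotype, and the gap to WT was 2.01-fold. The means of 3765 ± 931 in *Raf926* and 10637 ± 1237 in WT (SD, n = 3 each) placed *Raf926* at 35.4% of WT, with a log2 fold change of −1.50 (SE 0.18; edgeR quasi-likelihood test, adjusted p = 0.00042).

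None of the other ligands was called lower. *Krn* (Keren, FBgn0052179, chromosome 3L, 17649562 to 17654280, minus strand), a second ligand of the spitz type that needs cleavage, had 762, 764 and 816 normalized counts in *Raf926* and 629, 642 and 553 in WT. Every *Raf926* sample was above every WT sample, but the log2 fold change of 0.36 (95% interval 0.04 to 0.68) was under the 1.5-fold threshold and *Krn* was not called (edgeR quasi-likelihood test, adjusted p = 0.055). *Krn* shares 289 of its 1354 exonic bases with *Ndfip* on the same strand. Its expected counts were not whole numbers in any of the 6 samples, as happens where reads are divided between genes, so its level is uncertain. *Ndfip* itself was called lower, at 1909 ± 249 in *Raf926* and 3611 ± 181 in WT (SD, n = 3 each).

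*vn* (vein, FBgn0003984, chromosome 3L, 5813338 to 5845664, minus strand) encodes a neuregulin-like ligand that is secreted without Rhomboid cleavage. It had 1300.2, 998 and 936 normalized counts in *Raf926* and 801, 947 and 883 in WT. The groups overlapped through *Raf926* replicate 3 and WT replicate 2, and the log2 fold change was 0.30 (95% interval −0.08 to 0.67). *grk* (gurken, FBgn0001137, chromosome 2L, 8431086 to 8433598, minus strand), the ligand that the oocyte sends to the follicle cells, had 252, 349 and 234 normalized counts in *Raf926* and 213, 229.8 and 234 in WT. Here *Raf926* replicate 2 was highest and the other samples lay close together, with a log2 fold change of 0.30 (95% interval −0.21 to 0.82). *grk* shares 212 of its 1718 exonic bases with the far more abundant *Akap200* on the other strand, and no source describes counting by strand. Its expected counts were whole numbers in every sample, unlike those of *Krn*, so no division of reads between genes is seen in them. Whether every read of this stretch went to the right gene cannot be told. Neither gene passed the test, with adjusted p of 0.15 for *vn* and 0.27 for *grk* (edgeR quasi-likelihood test).

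Of the proteases, *rho* was called lower and *ru* was not called. *rho* (rhomboid, FBgn0004635, chromosome 3L, 1463811 to 1468944, plus strand), the intramembrane protease whose patterned transcription sets where spitz is released, had 258, 228.5 and 242 normalized counts in *Raf926* and 886, 911 and 810.1 in WT. Both genotypes were tight, and the lowest WT sample was 3.14 times the highest *Raf926* sample. *Raf926* embryos averaged 243 ± 14.8 and WT embryos 869 ± 52.7 (SD, n = 3 each), which is 27.9% of WT and a log2 fold change of −1.84 (SE 0.15; edgeR quasi-likelihood test, adjusted p = 8.9e-05). *ru* (roughoid, FBgn0003295, chromosome 3L, 1370628 to 1387437, plus strand), a related protease known chiefly from the eye, was scarce, with 24.5, 41.1 and 28.5 normalized counts in *Raf926* and 35.0, 28.4 and 53.6 in WT. The groups overlapped, and the log2 fold change of −0.31 had a 95% interval from −1.21 to 0.58. *ru* had 21 to 64 counts per library. Both genes lie inside *Ptp61F*, which runs on the opposite strand, but share 0 exonic bases with it.

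*S* (Star, FBgn0003310, chromosome 2L, 1049674 to 1077815, minus strand) encodes the type II membrane protein that carries spitz from the endoplasmic reticulum to the compartment of the protease. It had 4967, 4275 and 4722 normalized counts in *Raf926* and 5292, 6592 and 5204 in WT. The groups did not overlap, but the nearest samples differed by only 1.05-fold. The log2 fold change of *S* was −0.29 (95% interval −0.57 to −0.01, edgeR quasi-likelihood test, adjusted p = 0.069), under the 1.5-fold threshold.

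The feedback inhibitors showed the lowest fold changes of the 10. *aos* (argos, FBgn0004569, chromosome 3L, 16470386 to 16483650, minus strand), a secreted protein that binds spitz and whose transcription is switched on by the pathway, had 289.7, 379 and 357 normalized counts in *Raf926* and 1643, 2163 and 2090.5 in WT. Every *Raf926* sample was at least 4.33-fold below every WT sample. The means of 342 ± 46.5 in *Raf926* and 1965 ± 282 in WT (SD, n = 3 each) put *Raf926* at 17.4% of WT, with a log2 fold change of −2.52 (SE 0.17; edgeR quasi-likelihood test, adjusted p = 4.4e-05). At rank 994 from the lowest of 11568 fold changes, it lay among the strongly reduced genes.

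*sty* (sprouty, FBgn0014388, chromosome 3L, 3401153 to 3424935, minus strand), an intracellular inhibitor of receptor tyrosine kinases that is also a transcriptional target of the pathway, had 438, 357 and 339 normalized counts in *Raf926* and 4148, 4917 and 5050.5 in WT. The lowest WT sample was 9.47 times the highest *Raf926* sample. Means were 378 ± 52.8 in *Raf926* and 4705 ± 487 in WT (SD, n = 3 each), which is 8.03% of WT. The log2 fold change of *sty* was −3.64 (SE 0.15; edgeR quasi-likelihood test, adjusted p = 9e-06), at rank 539 from the lowest. Neither inhibitor shares exonic bases with another annotated gene.

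**Figure D2:**
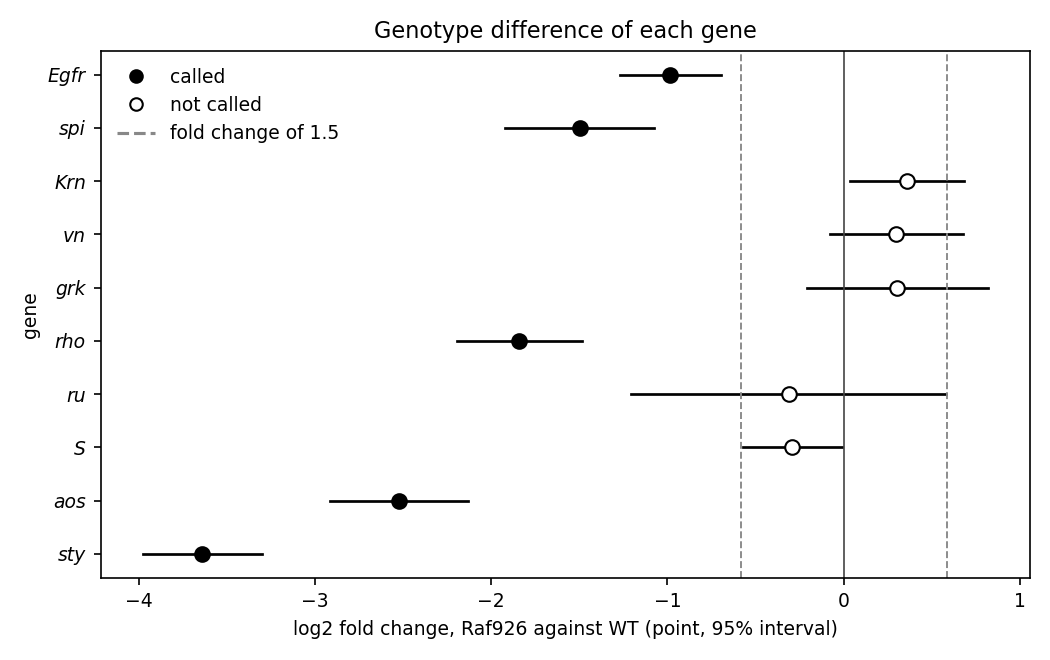
Log2 fold change of each gene in *Raf926* against WT embryos, with 95% intervals from the quasi-likelihood fit, filled points for genes called and open points for genes not called. Dashed lines mark a fold change of 1.5. *sty* at −3.64 and *aos* at −2.52 lie lowest, and the intervals of *vn*, *grk* and *ru* include 0.

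Levels can be set side by side between genes only per transcript length, as TPM. In *Raf926* embryos the order of mean TPM ran from *spi* (74.9), *S* (30.9), *Krn* (18.6) and *Egfr* (15.6) down to *vn* (6.20), *grk* (5.0), *aos* (3.49), *sty* (2.77), *rho* (2.75) and *ru* (0.533). In WT it ran from *spi* (256), *S* (41.8), *sty* (41.6), *Egfr* (37.9) and *aos* (24.3) down to *Krn* (17.6), *rho* (11.9), *vn* (5.89), *grk* (4.90) and *ru* (0.813). The sample ranges of neighbours in this order overlapped for *vn* and *grk*, *aos* and *sty*, and *sty* and *rho* in *Raf926*, and for *S* and *sty*, *sty* and *Egfr*, and *vn* and *grk* in WT. *sty* thus stood beside *rho* in *Raf926* and beside the receptor in WT.

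The make-up of the ligand transcripts differed. The 4 ligands summed to 127, 90.3 and 97.3 TPM in *Raf926* replicates, against 254, 309 and 292 TPM in WT. *spi* held 76.0%, 66.0% and 70.7% of this sum in *Raf926*, and 89.1%, 90.6% and 90.2% in WT, so that each *Raf926* sample was below each WT sample. The difference in the *spi* share was −19.1 percentage points (70.9% ± 5.05 in *Raf926* and 90.0% ± 0.774 in WT, SD, n = 3 each; exact permutation test, two-sided, p = 0.1, adjusted over the 4 ligands 0.1). *Krn* held 18.2% ± 3.30 in *Raf926* and 6.21% ± 0.689 in WT, *vn* 5.93% ± 0.521 in *Raf926* and 2.07% ± 0.0801 in WT, and *grk* 4.95% ± 1.83 in *Raf926* and 1.73% ± 0.151 in WT. For each ligand the genotypes did not overlap, which gives the smallest p of 0.1 that this exact test allows. With counts in place of TPM the difference in the *vn* share was 11.2 percentage points, against 3.86 by TPM. Shares are bound to sum to the whole. Those of *Krn*, *vn* and *grk* were larger in *Raf926*, where *spi* averaged 74.9 TPM, against 256 TPM in WT.

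**Figure D3:**
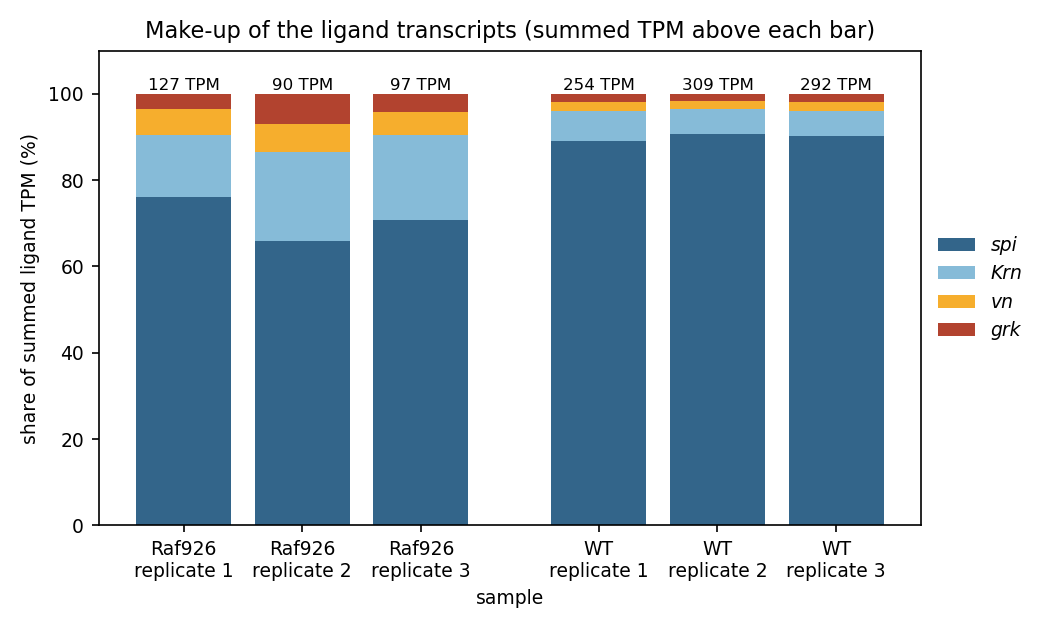
Share (%) of the summed ligand TPM held by *spi*, *Krn*, *vn* and *grk* in each sample, with *Raf926* replicates on the left, WT replicates on the right and the summed TPM above each bar. *spi* takes 66.0% to 76.0% of the bars of *Raf926* embryos and 89.1% to 90.6% of those of WT.

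Ratios within a sample, again of TPM, compared the parts of the module with each other. The inhibitors together per receptor, (*aos* + *sty*)/*Egfr*, came to 0.344, 0.453 and 0.419 in *Raf926* and 1.66, 1.72 and 1.84 in WT. The difference on the log2 scale was −2.11, with no overlap between the genotypes. The ratio of *sty* to *aos* was 1.09, 0.662 and 0.695 in *Raf926* and 1.80, 1.62 and 1.73 in WT, a log2 difference of −1.11, again with no overlap. The escort per ligand, *S*/*spi*, was 0.333, 0.520 and 0.432 in *Raf926* and 0.163, 0.169 and 0.157 in WT, a log2 difference of 1.37. *spi* per *Egfr* was 5.33, 4.13 and 4.77 in *Raf926* and 6.71, 7.14 and 6.48 in WT, a log2 difference of −0.52. The protease per ligand, *rho*/*spi*, was 0.0306, 0.0438 and 0.0389 in *Raf926* and 0.0527, 0.0432 and 0.0444 in WT. These ranges overlapped, and the log2 difference was −0.32 (exact permutation test, two-sided, p = 0.2). The other ratios gave p = 0.1 in the same exact test, or 0.125 after Benjamini-Hochberg adjustment over the 5 ratios.

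The tables also give, for each gene and sample, a mean transcript length weighted by the estimated abundance of its transcripts. For the 5 of these genes with exactly 2 annotated transcripts, that mean fixes the share of each, given the lengths annotated in BDGP6.54. Of the 6 genes with several transcripts, 3 (*Egfr*, *vn* and *S*) had mean lengths that did not overlap between the genotypes, where this was so for 37.2% of all 6496 tested genes with several transcripts. The mean length of *spi*, which has 5 transcripts, overlapped.

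For the receptor, the longer transcript Egfr-RB (6124 bases, encoding 1426 codons) made up 85.3%, 81.1% and 84.1% of *Egfr* transcripts in *Raf926* and 68.7%, 66.7% and 61.3% in WT. The shorter Egfr-RA (5698 bases, 1377 codons) was at 2.66, 2.72 and 2.29 TPM in *Raf926* and 10.6, 13.04 and 15.7 TPM in WT, which is 19.5% of WT. Egfr-RB averaged 13.1 ± 2.03 TPM in *Raf926* and 24.8 ± 1.48 TPM in WT (SD, n = 3 each), or 52.9% of WT. By TPM, which is not TMM-scaled, *Egfr* as a whole averaged 15.6 ± 2.10 in *Raf926* and 37.9 ± 3.62 in WT (SD, n = 3 each). The percentages of the transcripts are therefore not comparable with the 50.6% given above from normalized counts. Both transcripts were at a lower TPM in each *Raf926* sample than in any WT sample, and the shorter one held the smaller percentage of its WT level. The proteins they encode are known to differ at the N terminus.

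For *vn* the shift ran the other way. The longer vn-RA (5102 bases) held 72.2%, 72.8% and 73.7% in *Raf926* and 89.0%, 83.7% and 88.2% in WT. The shorter vn-RC (4059 bases) averaged 1.69 ± 0.364 TPM in *Raf926* and 0.771 ± 0.212 TPM in WT (SD, n = 3 each) without overlap, although *vn* as a whole did not pass the test. For *S*, the longer S-RB (5206 bases) held 70.4%, 56.6% and 70.3% in *Raf926* and 83.4%, 75.3% and 75.6% in WT. S-RB averaged 20.3 ± 2.57 TPM in *Raf926* and 32.5 ± 2.68 TPM in WT (SD, n = 3 each), whereas the shorter S-RA, which encodes a protein of the same 597 codons, averaged 10.6 TPM in *Raf926* and 9.30 TPM in WT with overlapping samples. The shares of the transcripts of *rho* and *sty* overlapped between the genotypes. In the exact permutation test (two-sided) p was 0.1 for *Egfr*, *vn* and *S*, and 0.167 after adjustment over the 5 genes. These shares are derived from estimated lengths, with no interval for the estimation itself.

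**Figure D4:**
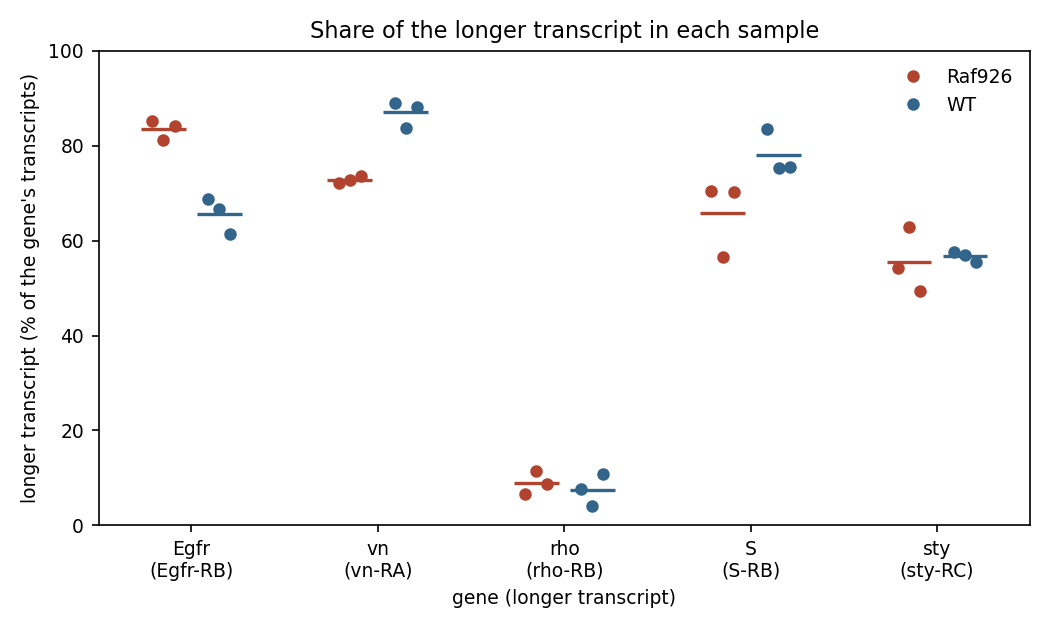
Share (%) of the longer transcript in each sample for the 5 genes with 2 annotated transcripts, *Raf926* embryos in red on the left and WT in blue on the right. Points are samples and bars are means of 3. The *Raf926* points lie above WT for *Egfr* and below WT for *vn* and *S*, and overlap WT for *rho* and *sty*.

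The rest of the pathway was described by 4 lists. For each, the shares to set beside its counts are 26.9% lower and 22.7% higher over all genes tested. Of the genes for ligand trafficking and the Rhomboid family, 6 of 7 were tested, of which 2 were called lower, 1 higher and 3 were not called (median log2 fold change 0.10). *rho-5*, which encodes an inactive Rhomboid relative, had a log2 fold change of −0.81, and *rasp*, which encodes the acyltransferase that adds palmitate to spitz, one of −0.77. *stet*, which encodes the Rhomboid of the germline, averaged 572 ± 163 normalized counts in *Raf926* and 297 ± 76.1 in WT (SD, n = 3 each) and was called higher, with a log2 fold change of 0.94. *rho-4* had a log2 fold change of 0.53 and was not called. Tested against the 1.5-fold threshold itself (edgeR glmTreat), 0 genes of this list were called, and with no fold threshold 5 were. Of all 11568 genes tested, 4301 were called by glmTreat and 7712 with no fold threshold. *rho-5* was not called without *Raf926* replicate 3 (log2 fold change −0.65) or without WT replicate 3 (−0.55). The maternal germline transcripts summed to higher levels in the same *Raf926* libraries, as given above, and their part in the *stet* value was not tested.

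Of the 9 attenuators and antagonists other than *aos* and *sty*, 3 were called lower, 1 higher and 5 were not called (median log2 fold change 0.19). *edl*, an antagonist of the ETS factors at the end of the pathway, averaged 1243 ± 195 normalized counts in *Raf926* and 2732 ± 304 in WT (SD, n = 3 each; log2 fold change −1.14). *Socs36E*, a suppressor of cytokine and EGF receptor signalling, had one of −1.13, and *aop*, which encodes the repressor Yan, one of −0.77. *Cbl*, which encodes the ubiquitin ligase that sends the receptor for degradation, was called higher (log2 fold change 0.79), and *kek1*, a transmembrane inhibitor of the receptor, was not called at 0.58. The log2 fold changes of all 9 lay between −1.14 and 0.79. With no fold threshold 7 of the 9 were called, as were 7712 of all 11568 genes tested. *kek1* was called higher without *Raf926* replicate 3 (log2 fold change 0.74) or without WT replicate 3 (0.89).

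Of the 11 genes of the cascade from receptor to ERK, 2 were called lower, 2 higher and 7 were not called (median log2 fold change 0.16). Shares over all genes tested were 26.9% lower and 22.7% higher. *Raf* had a log2 fold change of −0.88 (SE 0.15; edgeR quasi-likelihood test, adjusted p = 0.0016), and *Sos*, the exchange factor of Ras, one of −0.70. *csw*, the SHP2-type phosphatase that relays receptor signals, and *Ras85D*, the Ras protein itself, were called higher with log2 fold changes of 1.14 and 0.66. With glmTreat 2 genes of the list were called, and *Ras85D* and *Sos* were not. *Ras85D* was also under the fold threshold with scaling by library size alone (log2 fold change 0.47), with upper-quartile scaling (0.51) and without WT replicate 3 (0.58), as was *Sos* without *Raf926* replicate 2 (−0.58), while *rl*, the ERK gene, was called higher without *Raf926* replicate 2 (0.61) or WT replicate 1 (0.66). The counts per gene do not separate *Raf* RNA made by the mother from that of the embryo.

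Of the 8 embryonic genes that act with or below the receptor, 7 were called lower and 1 was not called (median log2 fold change −3.14). *ind*, the intermediate neuroblast gene, had 2.34, 6.32 and 1.06 normalized counts in *Raf926* and 206, 335 and 171 in WT, and *sim*, the regulator of midline fate, had 9.35, 21.1 and 2.11 in *Raf926* and 274, 499.7 and 338 in WT. *pnt*, the ETS activator through which the pathway acts, averaged 673 ± 30.4 in *Raf926* and 3416 ± 401 in WT (SD, n = 3 each; log2 fold change −2.34). *mirr* was called lower at −0.99, and *ovo* was not called at 0.47. For *ovo*, as for *Raf*, the counts per gene do not separate RNA made by the mother from that of the embryo. The study places *ind* and *vnd* among neuroectoderm targets of Dorsal, the transcription factor of the Toll pathway. It reports that Dorsal was excluded from the nuclei of *Raf926* embryos. The part of either pathway in these values was not tested. The lists of these genes were chosen with earlier results of the data known, and the counts are descriptions.

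**Figure D5:**
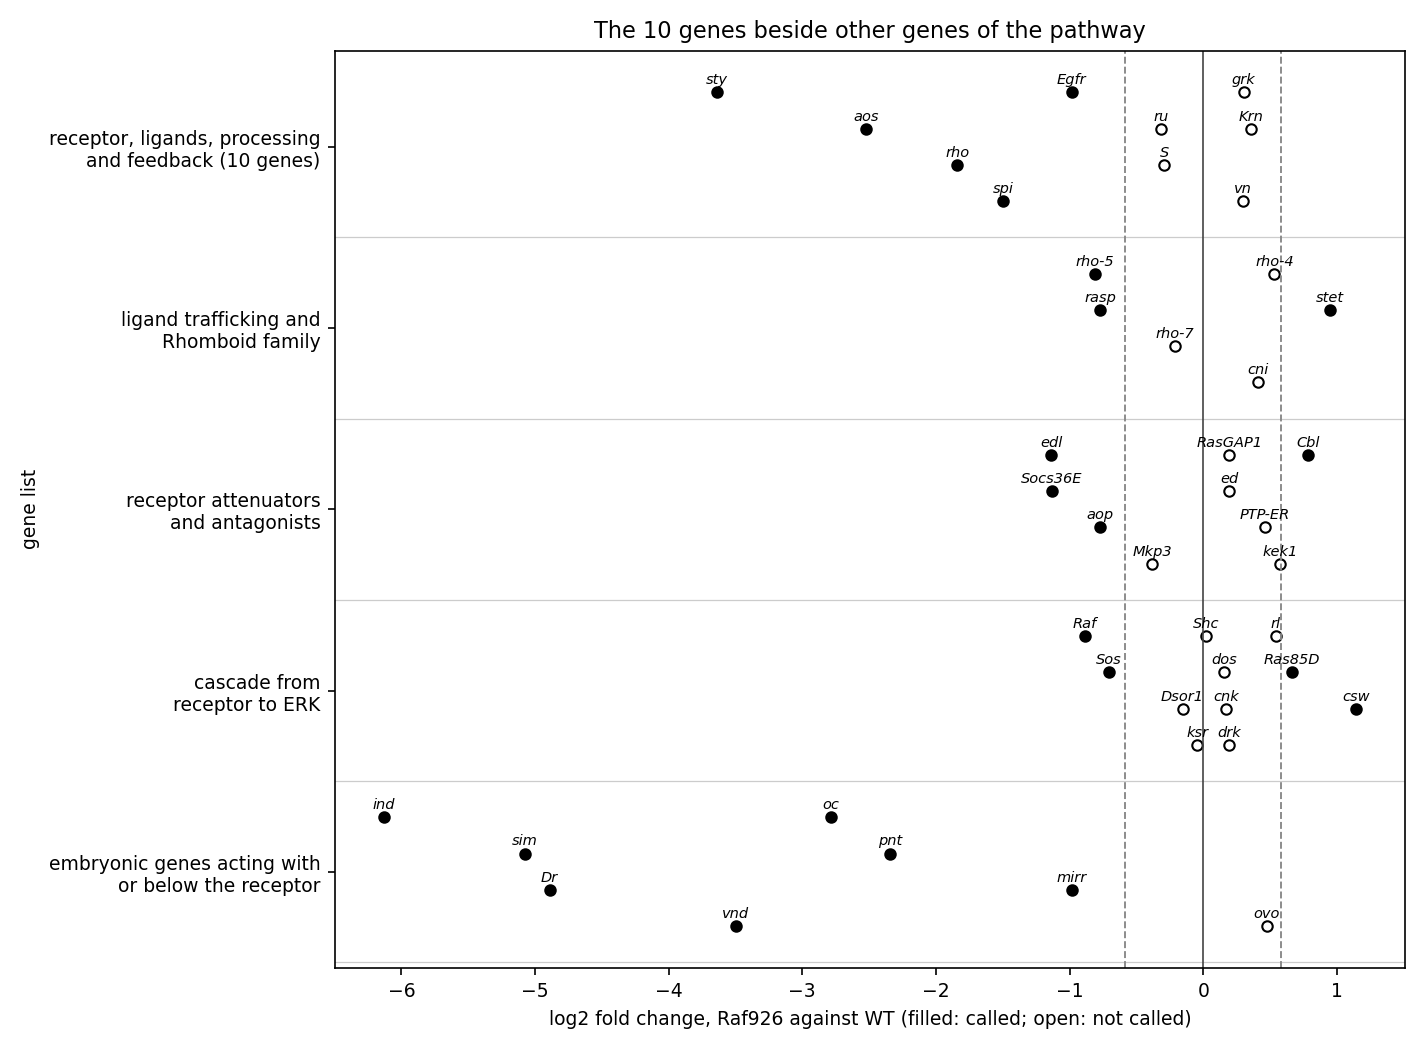
Log2 fold change of *Raf926* against WT embryos for the 10 genes (top) and for the tested genes of 4 other pathway lists, with filled points for genes called and open points for genes not called. Vertical spread within a list is for legibility and dashed lines mark a fold change of 1.5. The embryonic genes reach −6.13 (*ind*), and the cascade genes lie between −0.88 and 1.14.

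Markers of several cell types differed between the genotypes, some lower and some higher. Among all genes tested, 26.9% were called lower and 22.7% higher. All 4 ventral midline markers were called lower, summing to 45.7 to 65.5 TPM in *Raf926* and 140.4 to 173 TPM in WT, and so were all 4 neuronal markers, at 17.9 to 23.1 TPM in *Raf926* and 102 to 147 TPM in WT. Among the midline markers, *sim* also belongs to the list of embryonic genes above, so these lists are not separate observations. The tracheal list was split, with the regulators *trh* and *btl* called lower and the late cuticle genes *Gasp*, *serp* and *verm* called higher, and the list summed to 1421 to 2147 TPM in *Raf926* and 284 to 481 TPM in WT. Of the markers of dorsal ectoderm and amnioserosa, 3 of 5 were called higher and 1 lower, at 100.3 to 147 TPM in *Raf926* and 81.3 to 94.8 TPM in WT. No defining marker of these 4 lists was at 0 in every sample. The part of these differences in tissue and age in the lower counts of *sty*, *aos*, *rho*, *spi* and *Egfr* was not tested. The count of 5 genes called was the same without *Raf926* replicate 2, and without each of the other samples in turn.

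Nearest neighbours in pattern were found for each gene, as the smallest distance over the 6 samples between log2(normalized count + 1) values centred on the WT mean, among 9080 genes with a mean of at least 100 normalized counts. For *Egfr* these were *jing* (distance 0.122), *pxb* (0.132) and CG30349 (0.141), and for *spi* CG5281 (0.101), *rib* (0.142) and *bib* (0.193). For *rho* they included *vig* (0.197) and CG3036 (0.25). For *aos* they were *ltl* (0.396), CG7120 (0.431) and *rdgC* (0.440), and for *sty* CG32813 (0.307), *Tektin-C* (0.310) and CG14687 (0.350). The distance includes the size of the genotype difference.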

How the data were processed

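Reads of whole-embryo RNA were aligned by the authors with STAR 2.7.1a to BDGP6.22 (dm6, Ensembl 97) and quantified with RSEM 1.3.1. The deposited tables give, per gene and sample, expected counts, TPM and mean transcript length (the authors' RSEM estimates; other columns were not used). No molecular identifiers are described. Gene names and positions came from BDGP6.54 (Ensembl 115), which matched 17587 of 17714 identifiers, and of 10327 genes listed with 1 transcript 10167 kept the same length.

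Expected counts were rounded to whole numbers. As in the study, 390 rRNA, snoRNA and snRNA genes (6.11% to 9.47% of counts) and genes with a mean under 10 counts were removed. The genotypes were compared with edgeR 4.0.16 (R 4.3.3; TMM, quasi-likelihood test, Benjamini-Hochberg adjustment over 11568 genes). The script was tested on simulated data. Normalized counts are TMM-scaled. TPM was used for levels, shares and ratios, with exact permutation tests over samples. It was taken as deposited, without the TMM factors, which were 0.931 to 0.937 in *Raf926* and 1.03 to 1.11 in WT. Genotype differences by TPM and by normalized counts are thus on different scales.

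All 10 genes are reported. From each pathway list, the genes with the lowest 2 and highest 2 log2 fold changes, *Raf* and genes called unlike their list were to be named, and a few more were named after their values were seen. The genes and lists were chosen with earlier results of these data known. The alternatives were DESeq2 1.42.0 (size factors, Wald test), other scalings, filters and thresholds, a replicate block, counts for TPM and each sample left out. The ratios of *S* to *spi*, *sty* to *aos* and *spi* to *Egfr*, and the transcript shares with their alternatives, were added after seeing the data. A further near neighbour in pattern of *rho* is not reported here.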

Additional observations from a re-analysis of the deposited data

How the results depend on the processing

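The direction of all 10 log2 fold changes, and which of the genes were called, held in each of the 13 refits (other scalings, filters, DESeq2, the replicate block and each sample left out). The lowest and highest values over these were −1.18 and −0.88 for *Egfr*, −1.71 and −1.32 for *spi*, −2.04 and −1.76 for *rho*, −2.72 and −2.41 for *aos* and −3.84 and −3.56 for *sty*. Dropping the fold threshold raised the count of the 10 genes called to 7, with *Krn* and *S* added. By that rule 7712 of all 11568 genes tested were called. With the fold threshold 5747 of the 11568 were called, and 4301 by glmTreat against a fold change of 1.5. Scaling by library size alone moved the median of all genes to −0.24, the median of the 10 genes to −0.85 and the split of calls to 1967 higher and 3833 lower, from 2631 and 3116. Upper-quartile scaling gave −0.20, −0.81, and 2078 higher and 3675 lower. With each sample left out, the median of the 10 lay between −0.76 and −0.62.

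In the ligand trafficking list 5 genes were called with no fold threshold and 0 by glmTreat, in the attenuator list 7 with no fold threshold and in the cascade list 2 by glmTreat. With counts in place of TPM the differences in ligand share were −22.8 percentage points for *spi*, 8.55 for *Krn* and 11.2 for *vn*, against 12 and 3.86 by TPM for *Krn* and *vn*. The overlapping transcript shares turned direction for *rho* (−0.27 points without WT replicate 2, main value 1.39, highest 3.02) and *sty* (1.88 without *Raf926* replicate 3, main value −1.21, lowest −4.90). The difference in the S-RB share kept its direction, at −7.77 points without *Raf926* replicate 2 (main value −12.3, lowest −14.7). The causes were not tested.

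Same-numbered samples did not deviate together (correlations −0.04, −0.20 and −0.18). With 3 samples a genotype, this cannot tell whether they were collected or prepared in pairs. With the replicate block 5 of the 10 genes were called, and 2536 genes higher and 2957 lower overall. The interval of *ru* is wide, gene overlap limits *Krn*, and *grk* overlaps a gene but shows no divided counts. The 3 samples a genotype, the single allele and the unmatched strain limit the rest.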

Other observations

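The 5 genes of the module that were not called also had near neighbours in pattern, by the distance used above over the 6 samples. For *Krn* these were *PrBP* (distance 0.0553), *Tango2* (0.0617) and *eEF5* (0.0673), for *vn* *Atg9* (0.0990), *ATPCL* (0.144) and *colt* (0.144), and for *S* *Pyroxd1* (0.0564), CG33932 (0.0630) and *Rpp20* (0.0630). CG33932 and *Rpp20* had identical distances and log2 fold changes, so they may not be separate measurements. *grk* was nearest to *Zip71B* (0.186), and *ru* to *dati* (0.210).

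The hemocyte markers, which belong to no comparison above, were split, with *srp* and *Pxn* called lower and *Hml* called higher, at a sum of 14.7 to 22.9 TPM in *Raf926* embryos and 39.1 to 53.9 TPM in WT. Among the muscle and tendon markers *Tsp* alone was not called, with 2897, 2559 and 2678 normalized counts in *Raf926* and 1888, 1877 and 2882 in WT.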
